A study of Mus musculus with 18 samples.

Results

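The genes described here encode the subunits of the Mediator complex. They were taken from the deposited table of read counts by symbol: every name made of Med and a number, with or without a final l, plus Cdk19 and Ccnc. This gave 32 of the 25897 genes in the table. Cdk8, the other kinase of the complex, was left out by this rule because its counts look repeat-derived. The count model kept 14128 genes with enough reads to test, and 31 of the 32 Mediator genes were among them. Med20 was the exception, since it was listed at 0 counts in all 18 libraries. In the gene annotation Med20 overlaps Gm20517 on the same strand, and whether its reads were assigned there or left uncounted was not tested.

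Newly made RNA was sequenced from E14tg2a mouse embryonic stem cells (129SV background). Med24 had been knocked out in every group, and in its place a tetracycline-regulated promoter drove a FLAG-Med24 cDNA. All cells also carried a cassette for rtTA, the doxycycline-dependent activator of that promoter, and for cRAF-ErT2, a RAF kinase that 4-hydroxytamoxifen (4OHT) switches on and that in turn activates ERK. The 6 groups were cells kept with 500 nM doxycycline (labelled WT, called rescued here) and cells kept without it (labelled KO, called knockout here), each sampled 0, 2 and 8 h into 4OHT treatment. The 3 libraries of a group are named clone A, B and C. Cells had grown in serum, LIF and the GSK3 inhibitor Chir99021 at 2 µM, and were then moved for 24 h into serum, LIF and the FGF receptor inhibitor PD173074 at 250 nM. The protocol gives 250 nM 4OHT, and 5 mM ethynyl uridine for 15 min to mark new RNA, which was captured by click chemistry. All rescued and no knockout libraries had doxycycline, so effects of the drug and of Med24 cannot be told apart. No label says that clones with the same letter are the same clone, so p-values measure only the spread between libraries labelled alike.

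Mediator carries signals from transcription factors bound at enhancers and promoters to RNA polymerase II. Its head and middle modules contact the polymerase, Med14 runs through the complex as a scaffold, and the tail holds many of the surfaces that activators bind. A separate kinase module, built from cyclin C, Cdk8 or Cdk19, Med12 or Med12l, and Med13 or Med13l, docks on the core reversibly. The l forms and Cdk19 are vertebrate paralogs of Med12, Med13 and Cdk8. Med24 belongs to the tail, and Med23, another tail subunit, is known as a contact of the ERK-responsive factor Elk1.

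Library totals ran from 6691177 to 14541145 counts, at which 3 counts, the most that a count of 0 allows, correspond to 0.196 to 0.629 CPM (counting error only). CPM, the usual depth-scaled read count, is taken here on TMM-scaled library totals, with no gene length in it. All 8 embryonic stem cell markers listed reached 1 CPM in every library. Their sum was 2297 to 2323 CPM in rescued cells at 0 h, 1553 to 1589 at 2 h and 1741 to 1829 at 8 h, and in knockout cells 2133 to 2162, 1780.0 to 1965 and 1904 to 2235. The sum pools opposite movements. In rescued cells at 0, 2 and 8 h, Nanog was at 330, 78.0 and 19.8 CPM and Pou5f1 at 174, 218 and 282 CPM. The summed primitive endoderm markers fell with time, from 31.5 to 31.8 CPM at 0 h to 8.82 to 9.74 at 8 h in rescued cells. In knockout cells the sums went from 55.7 to 68.4 to 23.0 to 29.4. Single genes differed: by 2 h in rescued cells Dab2 went from 19.2 to 3.43 CPM and Pdgfra from 1.66 to 3.67 CPM. Of the 6 genes, 3 to 5 were at 1 CPM or more in every library of a group. By that measure fibroblast markers counted 1 of 6 genes in each group, with sums of at most 10.1 CPM, and trophectoderm markers 2 or 3 of 4. Trophectoderm sums at 8 h were 43.7 to 51.5 CPM in rescued and 22.1 to 31.7 in knockout cells. The part of these marker movements in the Mediator values was not tested. Cdk8 took 4.4% to 5.88% of all counts in 15 libraries and 8.73% to 10.9% in 3 knockout libraries, 2 h clone A and 8 h clones B and C. Values without these 3 high-share libraries are given where they end a call that is named. At 8 h that fit keeps 1 knockout library, so a call lost there cannot be told apart from the loss of libraries.

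Med24 was the manipulated gene and checks the labels (chr11:98704591-98729435, minus strand of GRCm38). Its reads pool the cDNA and the endogenous locus, and the labels do not say which part of the locus the knockout removed. In rescued cells, Med24 gave 528, 602 and 515 CPM at 0 h, 1520.0, 1775 and 1610.0 CPM at 2 h and 405, 407 and 399.5 CPM at 8 h. In knockout cells, Med24 gave 39.5, 41.7 and 35.5 CPM at 0 h, 49.2, 43.1 and 47.3 CPM at 2 h and 41.1, 42.8 and 34.0 CPM at 8 h. Every rescued library stood above every knockout library. Knockout cells were lower by 14.1-fold at 0 h, 35.2-fold at 2 h and 10.2-fold at 8 h, with log2 differences of -3.81 ± 0.08, -5.14 ± 0.08 and -3.35 ± 0.08 (± SE; edgeR quasi-likelihood test, Benjamini-Hochberg adjusted p = 1.91e-25, 4.95e-29 and 2.00e-23). In rescued cells the level was not steady: it rose 2.98-fold by 2 h, a log2 change of 1.58 ± 0.07 (adjusted p = 3.86e-19), and at 8 h lay 1.36-fold under the 0 h level, at -0.44 ± 0.07 (adjusted p = 1.20e-06). The 3 libraries at 2 h stood above all others and those at 8 h below those at 0 h. In knockout cells the change by 2 h was 0.25 ± 0.09 (adjusted p = 0.0174). That call was lost without any 1 of knockout 0 h clone C or knockout 2 h clone A or C (0.19 to 0.24, adjusted p 0.0537 to 0.0961), and its sign turned with library size alone as the scaling (-0.03, adjusted p = 0.85).

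By 2 h of 4OHT, more Mediator genes rose than fell in both kinds of cell. A gene is called changed where the edgeR adjusted p, taken over all 14128 genes, is under 0.05. In rescued cells 16 of 31 rose and 7 fell, or 51.6% and 22.6%, against 32.4% higher and 33.8% lower among all genes tested. The median log2 change of the members was 0.23 and that of all genes -0.02. In knockout cells 16 rose and 6 fell, or 51.6% and 19.4% (background 31.5% higher and 35.2% lower), with medians of 0.17 and -0.05. These counts include Med24, the manipulated gene. Without it 15 of 30 rose and 7 fell in rescued cells, with a median of 0.23. In knockout cells 15 of 30 rose and 6 fell without it, with a median of 0.11. Scaling by library size alone shifted all genes by -0.16 in rescued and -0.28 in knockout cells. Under it 8 members rose and 7 fell in rescued cells, with a member median of 0.07 that kept its sign. In knockout cells 4 rose and 8 fell, and the member median turned to -0.11 while that of all genes was -0.33. The share of all calls that were higher was then 31.9% in place of 48.9% in rescued cells and 21.2% in place of 47.2% in knockout cells.

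At 8 h against 0 h, 11 members were higher and 7 lower in rescued cells (background 30.7% and 31.3%), and 9 higher and 5 lower in knockout cells (background 28.2% and 29.6%). The members' shares were 35.5% and 22.6% in rescued and 29.0% and 16.1% in knockout cells. The member medians were 0.15 and 0.04, beside -0.01 and -0.02 for all genes. Without Med24, 6 in place of 7 members were lower in rescued cells, and the medians were 0.15 and 0.05. Library size alone turned the knockout median to -0.32, with 2 members higher and 14 lower and 14.7% in place of 48.8% of all calls higher. All genes shifted by -0.36. Without the high-share libraries 7 members were higher and 3 lower in knockout cells.

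From 2 to 8 h the count leaned to lower values: 5 members rose and 15 fell in rescued cells (background 30.7% and 30.2%), and 6 rose and 13 fell in knockout cells (background 29.4% and 27.7%). Without Med24, 14 fell in rescued and 12 in knockout cells, with medians of -0.16 and -0.03. This comparison shares its 2 h libraries with those above, so a rise by 2 h and a fall after it are not separate evidence. The medians over all members were -0.16 and -0.04, beside 0.01 and 0.03 for all genes, and kept their sign with library size alone (-0.08 and -0.12). The knockout median was -0.01 without knockout 2 h clone C, -0.09 without knockout 2 h clone A, -0.07 without knockout 8 h clone A and -0.13 without the high-share libraries. In that scaling 4 members rose and 5 fell in rescued cells, and 61.2% in place of 50.4% of all calls were higher. Without the high-share libraries 4 members rose and 9 fell in knockout cells.

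Scaling by library size alone also ended calls of single members given below. By 2 h in rescued cells these were the rises of Med6, Med18, Med1, Med4, Med16, Med27, Med29 and Med12. In knockout cells they were Med6, Med1, Med4, Med10, Med15, Med23, Med24, Med27, Med28, Med12, Med13l and Cdk19. At 8 h against 0 h it ended those of Med8, Med1, Med4, Med26, Med15, Med25, Med29 and Med13 in rescued cells and of Med17, Med22, Med1, Med19, Med15, Med25 and Med13l in knockout cells. Between the cells it ended those of Med4, Med15 and Med27 at 0 h, of Med19, Med28, Med13 and Cdk19 at 2 h and of Med7, Med9, Med30, Med12l and Cdk19 at 8 h. From 2 to 8 h it ended 11 calls in rescued cells: Med6, Med18, Med22, Med4, Med14, Med15, Med16, Med23, Med25, Med27 and Ccnc. In knockout cells it ended 9: Med17, Med22, Med1, Med10, Med19, Med15, Med23, Med24 and Med25. Of these values from 2 to 8 h, those of Med18 and Med27 in rescued cells are given below.

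**Figure D1:**
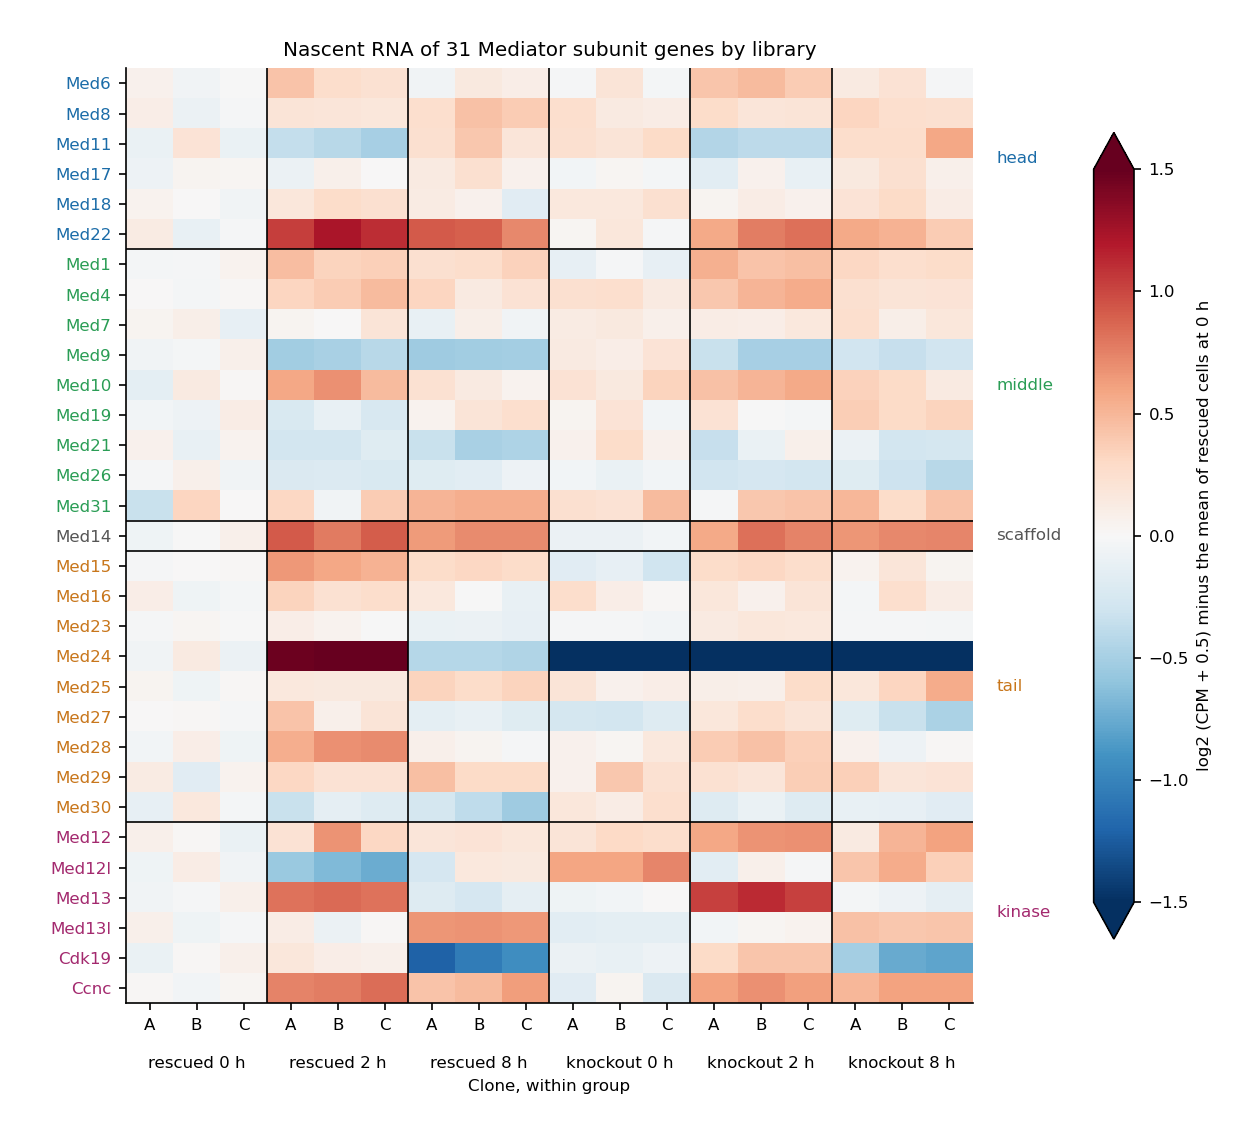
Nascent RNA of the 31 tested Mediator genes (rows, coloured by module) in the 18 libraries (columns, clones A to C of each group), as log2 of CPM + 0.5 minus the mean of rescued cells at 0 h. Med22, Med14, Med13, Ccnc and Med24 are dark red at 2 h in rescued cells, Cdk19 is blue at 8 h, and Med24 is at the blue end of the scale in all knockout libraries.

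Genes of 1 module moved in different directions. By 2 h in rescued cells 3 of the 6 tested head genes rose and 1 fell (median 0.21), 3 of 9 middle genes rose and 4 fell (0.09), 5 of 8 tail genes other than Med24 rose and 1 fell (0.24), and 3 of 6 kinase module genes rose and 1 fell (0.27). Among all genes tested 32.4% rose and 33.8% fell, with a median of -0.02. In knockout cells at 2 h the kinase module had 5 of 6 genes higher and 1 lower (median 0.44), while the head had 2 higher and 1 lower (0.00), the middle 3 and 3 (-0.01) and the tail without Med24 4 and 1 (0.11). The shares of all genes were then 31.5% higher and 35.2% lower, with a median of -0.05. At 8 h against 0 h the medians were 0.21, 0.15, 0.03 and 0.10 for head, middle, tail without Med24 and kinase module in rescued cells, and 0.11, 0.04, -0.01 and 0.05 in knockout cells. The medians of all genes were -0.01 and -0.02. Scaled by library size alone, the middle median at 2 h in rescued cells turned to -0.07 and that of the tail without Med24 at 8 h to -0.04. The knockout medians at 2 h were then -0.28, -0.29, -0.18 and 0.16, and at 8 h -0.24, -0.32, -0.38 and -0.31, so their signs hold only relative to the other genes. Placing Med27 to Med30 in the head, as some schemes do, gave head medians in rescued cells of 0.24 at 2 h and 0.10 at 8 h, and of 0.04 at both times in knockout cells. The rest of the tail without Med24 was then at 0.16 at 8 h in rescued and 0.11 in knockout cells. With so few genes in a module these medians are a description, without a test.

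Beside Med24, the rises largest in size at 2 h in rescued cells were those of Med22, Med14, Med13 and Ccnc, of the head, scaffold and kinase modules. Their promoters are shown because these 4 genes were chosen as the largest changes at that time other than Med24. The bases printed lie upstream of the annotated starts and in no annotated exon (RefSeq, GRCm38.p6), on the strand of the gene. Between them and the RefSeq start lie 35 bases for Med22, 0 for Ccnc, 6 for Med13 and 100 for Med14. Capitals mark the GC box, GGGCGG on either strand, and in Med14 also the ETS motif CCGGAAG, the core bound by factors such as Elk1.
Med22: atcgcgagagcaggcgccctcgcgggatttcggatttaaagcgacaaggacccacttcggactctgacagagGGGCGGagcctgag
Ccnc: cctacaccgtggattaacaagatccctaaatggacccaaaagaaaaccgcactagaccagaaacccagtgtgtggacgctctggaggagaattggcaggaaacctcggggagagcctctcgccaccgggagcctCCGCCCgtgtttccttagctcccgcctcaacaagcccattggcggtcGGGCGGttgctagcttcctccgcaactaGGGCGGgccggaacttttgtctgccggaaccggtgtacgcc
Med13: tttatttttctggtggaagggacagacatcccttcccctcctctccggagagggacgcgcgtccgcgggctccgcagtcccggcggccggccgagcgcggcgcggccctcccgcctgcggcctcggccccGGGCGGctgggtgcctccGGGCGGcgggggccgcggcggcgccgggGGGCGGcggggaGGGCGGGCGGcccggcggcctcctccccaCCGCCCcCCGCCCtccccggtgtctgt
Med14: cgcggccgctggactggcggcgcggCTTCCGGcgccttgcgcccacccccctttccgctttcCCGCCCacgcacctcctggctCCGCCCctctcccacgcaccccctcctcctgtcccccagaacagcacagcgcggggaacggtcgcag

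The stretches are chr2:26910678-26910763, minus strand (86 bases) for Med22, chr4:21727451-21727700, plus strand (250 bases) for Ccnc, chr11:86357603-86357846, minus strand (244 bases) for Med13 and chrX:12762074-12762223, minus strand (150 bases) for Med14. Within them 1, 3, 7 and 2 GC boxes were found, overlapping matches counted each, and 1 ETS motif in Med14. RefSeq's table held the promoter of 27 of the 32 members, and 250 bases upstream of each start were searched on both strands. The GC box was found in 17 of 27, against 58.7% of the promoters of tested genes. The ETS motif was found in 4 of 27 (Med14, Med17, Med19 and Med4), against 13.2%. The AP-1 motif TGANTCA was in 2 (Med19 and Med28, against 4.45%), the CRE TGACGTCA in 1 (Med21, against 2.65%) and the CArG box of serum response factor in 0 (against 1.15%). Such matches describe letters in a window and are not sites of binding. Of the 4 genes with an ETS motif, Med14 and Med4 rose by 2 h in rescued cells, Med19 fell and Med17 was not called.

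In the head module, Med22 had the clearest change. This small subunit joins Med11 at the base of the head (chr2:26905262-26910677, minus strand). In rescued cells, Med22 gave 26.7, 22.6 and 24.1 CPM at 0 h, 50.7, 57.7 and 53.3 CPM at 2 h and 46.5, 45.7 and 40.5 CPM at 8 h. In knockout cells, Med22 gave 24.9, 27.6 and 24.2 CPM at 0 h, 36.3, 42.0 and 43.7 CPM at 2 h and 36.3, 35.1 and 31.9 CPM at 8 h. The rescued libraries at 2 and 8 h all lay above those at 0 h, and at both times every rescued library lay above every knockout library. By 2 h Med22 rose 2.20-fold in rescued cells, a log2 change of 1.14 ± 0.09 (adjusted p = 7.67e-13), and 1.60-fold in knockout cells, 0.68 ± 0.09 (adjusted p = 6.67e-08). At 8 h it stood at 0.86 ± 0.09 (adjusted p = 5.12e-10) and 0.44 ± 0.09 (adjusted p = 1.58e-04) against 0 h, the latter call being lost with library size alone (0.08, adjusted p = 0.669). Its start lies 87 bases from that of Rpl7a on the opposite strand, and Rpl7a, at a log2 change of 0.17 by 2 h in rescued cells, was not called.

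Med11, the partner of Med22 at the base of the head (chr11:70451919-70453727, plus strand), went the other way. In rescued cells, Med11 gave 8.01, 10.0 and 8.04 CPM at 0 h, 6.66, 6.38 and 5.99 CPM at 2 h and 10.3, 11.6 and 9.86 CPM at 8 h. In knockout cells, Med11 gave 10.3, 9.99 and 10.7 CPM at 0 h, 6.26, 6.50 and 6.46 CPM at 2 h and 10.5, 10.5 and 13.2 CPM at 8 h. The 2 h libraries of both kinds of cell lay below all others, at few reads per library. Med11 fell by 2 h, by -0.45 ± 0.15 (adjusted p = 0.00898) in rescued cells and -0.69 ± 0.14 (adjusted p = 9.06e-05) in knockout cells, and from 2 to 8 h it rose by 0.73 ± 0.14 (adjusted p = 2.98e-05) and 0.80 ± 0.15 (adjusted p = 2.45e-05). The fall in rescued cells lost its call without rescued 0 h clone B (-0.34, adjusted p = 0.0697). Med18, a subunit of the movable jaw of the head (chr4:132458731-132463921, minus strand), differed little in level. In rescued cells, Med18 gave 38.0, 36.6 and 35.2 CPM at 0 h, 41.4, 44.4 and 43.3 CPM at 2 h and 39.8, 38.2 and 32.5 CPM at 8 h. In knockout cells, Med18 gave 40.9, 40.9 and 43.3 CPM at 0 h, 37.7, 39.4 and 38.4 CPM at 2 h and 42.1, 44.6 and 39.4 CPM at 8 h. It rose in rescued cells by 0.23 ± 0.08 (adjusted p = 0.00803), the 2 h libraries lying above those at 0 h, and was not called in knockout cells, at -0.11 ± 0.07 (adjusted p = 0.186). From 2 to 8 h in rescued cells it fell by -0.21 ± 0.07 (adjusted p = 0.0124), a call lost without rescued 8 h clone C (-0.14, adjusted p = 0.105).

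The other head genes changed less. Med6, at the interface to the middle, rose by 0.30 ± 0.07 in rescued and 0.37 ± 0.07 in knockout cells at 2 h, and at 8 h was within 0.05 ± 0.07 and 0.07 ± 0.08 of 0 h, not called. Med8, which tethers Med18, was called only at 8 h in rescued cells (0.35 ± 0.08 (adjusted p = 4.36e-04)). Med17, a large architectural subunit of the head, was at 0.00 ± 0.07 and -0.05 ± 0.07 at 2 h, not called, and at 0.17 ± 0.07 (adjusted p = 0.0299) at 8 h in knockout cells, a call lost without any 1 of knockout 0 h clone A or C or knockout 8 h clone B (0.13 to 0.17, adjusted p 0.0696 to 0.143) and without the 3 high-share libraries (0.17, adjusted p = 0.0954). With library size alone Med17 turned to -0.19, adjusted p = 0.218 in that comparison.

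Med14, the scaffold that links head, middle and tail (chrX:12675369-12762073, minus strand), was raised at both times. In rescued cells, Med14 gave 51.8, 54.0 and 57.4 CPM at 0 h, 103, 93.7 and 102 CPM at 2 h and 85.1, 89.4 and 88.9 CPM at 8 h. In knockout cells, Med14 gave 51.2, 51.2 and 53.0 CPM at 0 h, 80.6, 96.8 and 91.7 CPM at 2 h and 86.3, 90.2 and 90.5 CPM at 8 h. No library at 0 h overlapped one at 2 or 8 h. Med14 rose 1.83-fold in rescued cells by 2 h, 0.87 ± 0.06 (adjusted p = 2.43e-13), and 1.74-fold in knockout cells, 0.80 ± 0.06 (adjusted p = 2.57e-12). At 8 h the changes from 0 h were 0.69 ± 0.06 (adjusted p = 6.67e-11) and 0.78 ± 0.07 (adjusted p = 1.19e-11). These rises kept their calls in every alternative run.

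Of the 9 tested genes of the middle module, 4 fell by 2 h in rescued cells and 3 in knockout cells. They were among the 7 and 6 members that fell. In each kind of cell 3 of the 9 rose. Among all genes tested, 33.8% fell and 32.4% rose in rescued cells, and 35.2% fell and 31.5% rose in knockout cells. The 3 of 9 that fell in knockout cells, and the 3 that rose, are near these shares. The call of Med19, among the 4, was lost in several alternative runs given below. Med9, a small subunit paired with Med4, was lower at 2 h by -0.48 ± 0.06 (adjusted p = 7.77e-08) in rescued and -0.60 ± 0.06 (adjusted p = 7.31e-10) in knockout cells, and at 8 h by -0.53 ± 0.06 (adjusted p = 1.01e-08) and -0.46 ± 0.06 (adjusted p = 2.55e-07). Med21, the partner of Med7 in the hinge of the middle, was at -0.25 ± 0.09 (adjusted p = 0.014) and -0.25 ± 0.08 (adjusted p = 0.0109) at 2 h and at -0.43 ± 0.09 (adjusted p = 8.56e-05) and -0.34 ± 0.09 (adjusted p = 0.00147) at 8 h. Med26, the subunit that recruits elongation factors and marks Mediator without the kinase module, was at -0.22 ± 0.05 (adjusted p = 9.55e-04) and -0.21 ± 0.05 (adjusted p = 0.00132) at 2 h and at -0.14 ± 0.05 (adjusted p = 0.0268) and -0.23 ± 0.06 (adjusted p = 7.97e-04) at 8 h. The 2 h and 8 h values of a gene share their 0 h libraries. The call of Med26 at 8 h in rescued cells was lost without a low-count filter (-0.12, adjusted p = 0.0882). Several calls of Med21 and Med26 were also lost when 1 library was left out. Med21 was not called at 2 h in rescued cells without any 1 of rescued 0 h clone A or C (-0.22, adjusted p 0.0537 to 0.0577) or in knockout cells without any 1 of knockout 0 h clone B or knockout 2 h clone A (-0.17 to -0.15, adjusted p 0.115 to 0.12), and Med26 was not called at 8 h in rescued cells without any 1 of rescued 0 h clone B or rescued 8 h clone A or B (-0.14 to -0.10, adjusted p 0.0607 to 0.125). Without the 3 high-share libraries the calls of Med21 at 2 h (-0.13, adjusted p = 0.137) and 8 h (-0.22, adjusted p = 0.0591) and of Med26 at 8 h (-0.11, adjusted p = 0.19) in knockout cells were lost.

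Med1, the large subunit that binds nuclear receptors, and Med4 and Med10, both of the middle module, rose instead. Med1 was higher by 0.39 ± 0.05 (adjusted p = 2.10e-07) and 0.55 ± 0.05 (adjusted p = 1.44e-10) at 2 h and by 0.28 ± 0.05 (adjusted p = 2.82e-05) and 0.37 ± 0.05 (adjusted p = 8.82e-07) at 8 h. Med4 was at 0.40 ± 0.06 (adjusted p = 2.53e-06) and 0.28 ± 0.06 (adjusted p = 1.60e-04) at 2 h. Med10 was at 0.59 ± 0.08 (adjusted p = 3.43e-07) and 0.28 ± 0.08 (adjusted p = 0.00294), and 92.8% of its exon length overlaps a noncoding gene on the opposite strand that is not in the table. Med1 and Med4 lost their 2 h calls in both kinds of cell with library size alone, Med1 its 8 h calls too (0.21, adjusted p = 0.153 in rescued and 0.00, adjusted p = 0.985 in knockout cells), and Med10 in knockout cells turned to -0.00, adjusted p = 0.991. Med7 was called in no comparison of times, with values from -0.12 to 0.09 on the log2 scale. Med31 was called at 8 h in rescued cells (0.54 ± 0.15 (adjusted p = 0.00239)) and in no other comparison of times. Med19 was called at 2 h in rescued cells (-0.21 ± 0.09 (adjusted p = 0.0473)), a call lost with DESeq2 (adjusted p = 0.115), without a low-count filter and without any 1 of rescued 0 h clone A or C or rescued 2 h clone A or C (-0.23 to -0.15, adjusted p 0.0537 to 0.215). In knockout cells at 8 h Med19 was higher, at 0.26 ± 0.09 (adjusted p = 0.0106), a call lost without knockout 0 h clone C (0.21, adjusted p = 0.0616).

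In the tail, Med28 and Med15 had the largest rises beside Med24 by 2 h in rescued cells. Med15, a tail subunit known for binding activators, was higher at 2 h by 0.59 ± 0.06 (adjusted p = 8.63e-11) in rescued and 0.48 ± 0.06 (adjusted p = 1.01e-08) in knockout cells and at 8 h by 0.29 ± 0.06 (adjusted p = 4.12e-05) and 0.28 ± 0.06 (adjusted p = 1.24e-04). The 8 h value in knockout cells, scaled by library size alone, turned to -0.08, adjusted p = 0.607. Med28, a small subunit where tail and head meet (chr5:45520229-45529276, plus strand), was higher at 2 h. In rescued cells, Med28 gave 46.8, 51.5 and 46.0 CPM at 0 h, 70.1, 77.5 and 79.0 CPM at 2 h and 50.5, 49.5 and 47.3 CPM at 8 h. In knockout cells, Med28 gave 50.2, 49.0 and 53.6 CPM at 0 h, 62.9, 65.1 and 61.8 CPM at 2 h and 50.1, 45.6 and 48.6 CPM at 8 h. The 2 h libraries lay above those at 0 and 8 h in both kinds of cell, and those of rescued cells lay above those of knockout cells. Med28 rose 1.57-fold by 2 h in rescued cells, 0.65 ± 0.06 (adjusted p = 2.60e-10), and 1.24-fold in knockout cells, 0.31 ± 0.06 (adjusted p = 9.01e-05), where the call was lost with library size alone (0.03, adjusted p = 0.863). At 8 h it was at 0.04 ± 0.07 and -0.08 ± 0.07 against 0 h, not called in either.

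Med27 (chr2:29346819-29524793, plus strand), of the same upper tail region, rose at 2 h and fell after it. In rescued cells, Med27 gave 75.0, 75.5 and 73.8 CPM at 0 h, 101, 79.0 and 85.7 CPM at 2 h and 67.6, 69.2 and 66.0 CPM at 8 h. In knockout cells, Med27 gave 62.4, 61.9 and 65.4 CPM at 0 h, 84.3, 89.8 and 85.6 CPM at 2 h and 65.6, 59.4 and 53.7 CPM at 8 h. All 3 knockout libraries at 0 h lay below the rescued ones, and the same held at 8 h. Its changes by 2 h were 0.24 ± 0.07 (adjusted p = 0.00304) in rescued cells and 0.45 ± 0.07 (adjusted p = 1.33e-06) in knockout cells, and from 2 to 8 h -0.39 ± 0.07 (adjusted p = 1.29e-05) and -0.52 ± 0.07 (adjusted p = 3.96e-07). The 2 h rise in rescued cells lost its call without rescued 2 h clone A (0.14, adjusted p = 0.0655). Med30, the last of the small upper tail subunits, was the tail gene that was lower, at -0.22 ± 0.09 (adjusted p = 0.0233) and -0.34 ± 0.08 (adjusted p = 5.95e-04) at 2 h and -0.38 ± 0.09 (adjusted p = 2.73e-04) and -0.31 ± 0.09 (adjusted p = 0.00246) at 8 h. In rescued cells its 2 h call was lost with DESeq2 (adjusted p = 0.0681) and without any 1 of rescued 0 h clone B or rescued 2 h clone A (-0.17 to -0.15, adjusted p 0.114 to 0.168). Med29 was called at 2 h (0.25 ± 0.10 (adjusted p = 0.0365)) and 8 h (0.35 ± 0.10 (adjusted p = 0.00303)) in rescued cells. Its 2 h call was lost with DESeq2 (adjusted p = 0.0535) and without any 1 of rescued 0 h clone B or C or rescued 2 h clone A, B or C (0.17 to 0.27, adjusted p 0.052 to 0.193). Med16 was called at 2 h in rescued cells (0.27 ± 0.09 (adjusted p = 0.00667)), and Med23 at 2 h in knockout cells (0.18 ± 0.05 (adjusted p = 0.00167)), where it turned to -0.10, adjusted p = 0.493 with library size alone. Med25 was called at 8 h, at 0.32 ± 0.07 (adjusted p = 3.33e-04) and 0.22 ± 0.07 (adjusted p = 0.0129). In knockout cells that call was lost without any 1 of knockout 0 h clone B or knockout 8 h clone C (0.12 to 0.19, adjusted p 0.0536 to 0.164) and without the 3 high-share libraries (0.07, adjusted p = 0.539).

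The kinase module held members with opposite and differently timed changes. Med13, which tethers the module to the core (chr11:86267033-86357602, minus strand), changed at 2 h. In rescued cells, Med13 gave 163, 166 and 178 CPM at 0 h, 298, 305 and 296 CPM at 2 h and 148, 142 and 154 CPM at 8 h. In knockout cells, Med13 gave 162, 164 and 169 CPM at 0 h, 345, 366 and 345 CPM at 2 h and 166, 159.6 and 154 CPM at 8 h. The 2 h libraries lay far above the others, and the knockout ones above the rescued ones. Med13 rose 1.77-fold in rescued cells, 0.83 ± 0.05 (adjusted p = 5.34e-15), and 2.13-fold in knockout cells, 1.09 ± 0.05 (adjusted p = 6.56e-18). From 2 to 8 h it fell 2.03-fold and 2.20-fold, at -1.02 ± 0.05 (adjusted p = 4.04e-17) and -1.14 ± 0.05 (adjusted p = 6.72e-18), and at 8 h in rescued cells it lay under 0 h, at -0.19 ± 0.05 (adjusted p = 0.0019).

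Its paralog Med13l (chr5:118560679-118765438, plus strand) changed at 8 h. In rescued cells, Med13l gave 337, 304 and 315 CPM at 0 h, 344, 299 and 322 CPM at 2 h and 502, 509.7 and 499 CPM at 8 h. In knockout cells, Med13l gave 285, 287 and 287 CPM at 0 h, 309, 326 and 331 CPM at 2 h and 430.3, 421 and 426 CPM at 8 h. The 8 h libraries lay above those at 0 and 2 h in both kinds of cell, and in rescued cells those at 2 h overlapped those at 0 h. Med13l was at 0.01 ± 0.05 (adjusted p = 0.831) at 2 h in rescued cells and rose 1.58-fold by 8 h, 0.66 ± 0.05 (adjusted p = 3.64e-12). In knockout cells it rose 1.49-fold by 8 h, 0.57 ± 0.05 (adjusted p = 1.90e-10), and was at 0.17 ± 0.05 (adjusted p = 0.00713) at 2 h. With library size alone the 8 h call was lost (0.20, adjusted p = 0.162) and the 2 h value turned to -0.11, adjusted p = 0.459. Per kb of exon, Med13 made up 43.1% ± 2.0 (SD, n = 3) of the sum of both paralogs at 0 h in rescued cells, 57.1% ± 2.0 at 2 h and 29.5% ± 1.0 at 8 h. In knockout cells the shares were 45.1% ± 0.5, 60.9% ± 1.0 and 34.8% ± 0.8. The ranges of the 3 times did not overlap in either kind of cell. Per kb of exon the higher paralog was Med13l at 0 h, Med13 at 2 h and Med13l at 8 h. Which was higher at 0 h depended on the length: per kb of the whole gene, Med13 made up 54.5% ± 2.0, 67.8% ± 1.8 and 39.9% ± 1.2 in rescued and 56.6% ± 0.5, 71.2% ± 0.9 and 45.9% ± 0.8 in knockout cells.

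Cdk19 (chr10:40339564-40483818, plus strand), the paralog of Cdk8 in the module, had the largest fall of the 31 genes at 8 h against 0 h in both kinds of cell. In rescued cells, Cdk19 gave 131, 142 and 147 CPM at 0 h, 158, 150.1 and 147 CPM at 2 h and 60.2, 67.4 and 73.3 CPM at 8 h. In knockout cells, Cdk19 gave 131, 129 and 133 CPM at 0 h, 171, 186 and 187 CPM at 2 h and 97.8, 82.4 and 80.3 CPM at 8 h. The 8 h libraries lay below all others, and those of rescued cells below those of knockout cells. By 8 h Cdk19 was 2.11-fold lower in rescued cells, -1.07 ± 0.07 (adjusted p = 1.67e-14), and 1.49-fold lower in knockout cells, -0.58 ± 0.07 (adjusted p = 3.03e-08). At 2 h it was not called in rescued cells (0.11 ± 0.07 (adjusted p = 0.126)), and rose in knockout cells (0.47 ± 0.06 (adjusted p = 1.86e-07)), a call lost with library size alone (0.19, adjusted p = 0.231). Ccnc, the cyclin partner of both kinases (chr4:21727701-21759922, plus strand), rose at both times. In rescued cells, Ccnc gave 49.2, 47.3 and 49.7 CPM at 0 h, 82.1, 83.3 and 87.5 CPM at 2 h and 65.9, 68.1 and 75.4 CPM at 8 h. In knockout cells, Ccnc gave 43.1, 50.2 and 41.7 CPM at 0 h, 74.0, 78.5 and 74.7 CPM at 2 h and 69.2, 74.4 and 74.4 CPM at 8 h. No 0 h library overlapped a 2 or 8 h library. Its changes were 0.79 ± 0.07 (adjusted p = 9.64e-12) and 0.75 ± 0.07 (adjusted p = 4.36e-11) at 2 h and 0.51 ± 0.07 (adjusted p = 9.94e-08) and 0.68 ± 0.07 (adjusted p = 9.63e-10) at 8 h. The kinase and its cyclin thus stood on opposite sides of their 0 h levels at 8 h.

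Med12, which activates the kinase (chrX:101274030-101297465, plus strand), and Med12l, its paralog (chr3:59005825-59318682, plus strand), moved in opposite directions at 2 h. In rescued cells, Med12 gave 21.9, 21.2 and 19.4 CPM at 0 h, 24.3, 33.5 and 25.9 CPM at 2 h and 23.6, 24.2 and 23.6 CPM at 8 h. In knockout cells, Med12 gave 23.9, 25.6 and 25.1 CPM at 0 h, 31.3, 33.5 and 33.7 CPM at 2 h and 22.9, 30.0 and 31.9 CPM at 8 h. One rescued library at 2 h, clone B, stood apart from the other two. Med12 rose by 0.42 ± 0.11 (adjusted p = 0.00161) and 0.41 ± 0.10 (adjusted p = 0.00114) at 2 h and was not called at 8 h, at 0.19 ± 0.11 and 0.14 ± 0.11. Both 2 h calls were lost with library size alone (0.26, adjusted p = 0.129, and 0.12, adjusted p = 0.475). In rescued cells, Med12l gave 38.5, 43.6 and 38.9 CPM at 0 h, 27.3, 25.3 and 23.9 CPM at 2 h and 33.7, 45.0 and 44.7 CPM at 8 h. In knockout cells, Med12l gave 60.8, 61.0 and 67.3 CPM at 0 h, 36.2, 42.4 and 39.9 CPM at 2 h and 54.1, 59.2 and 51.8 CPM at 8 h. The 2 h libraries lay below those of the same cells at 0 h, and at each time the knockout libraries lay above the rescued ones. Med12l fell 1.58-fold by 2 h in rescued cells, -0.66 ± 0.10 (adjusted p = 1.12e-06), and 1.59-fold in knockout cells, -0.67 ± 0.09 (adjusted p = 1.05e-07), and from 2 to 8 h rose by 0.67 ± 0.10 (adjusted p = 7.21e-07) and 0.47 ± 0.09 (adjusted p = 6.62e-05). Per kb of exon, Med12 made up 46.1% ± 2.1 (SD, n = 3) of the pair at 0 h, 64.2% ± 4.6 at 2 h and 49.1% ± 4.0 at 8 h in rescued cells, and 39.5% ± 1.5, 58.0% ± 1.1 and 45.8% ± 4.7 in knockout cells. Per kb of the whole gene Med12 was the higher paralog in every group, at 87.3% ± 0.9, 93.5% ± 1.2 and 88.5% ± 1.6 in rescued and 84.0% ± 0.8, 91.7% ± 0.4 and 87.1% ± 2.1 in knockout cells. Exons of Igsf10 on the opposite strand cover 15.3% of those of Med12l, and counting by strand is not given in the sources used here. Igsf10 also fell at 2 h, from 7.03 to 2.35 CPM in rescued and from 7.65 to 2.98 CPM in knockout cells. At 8 h Igsf10 was at 3.08 CPM in rescued and 3.45 CPM in knockout cells, not called against 2 h in either. Its part in the Med12l values was not tested.

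**Figure D2:**
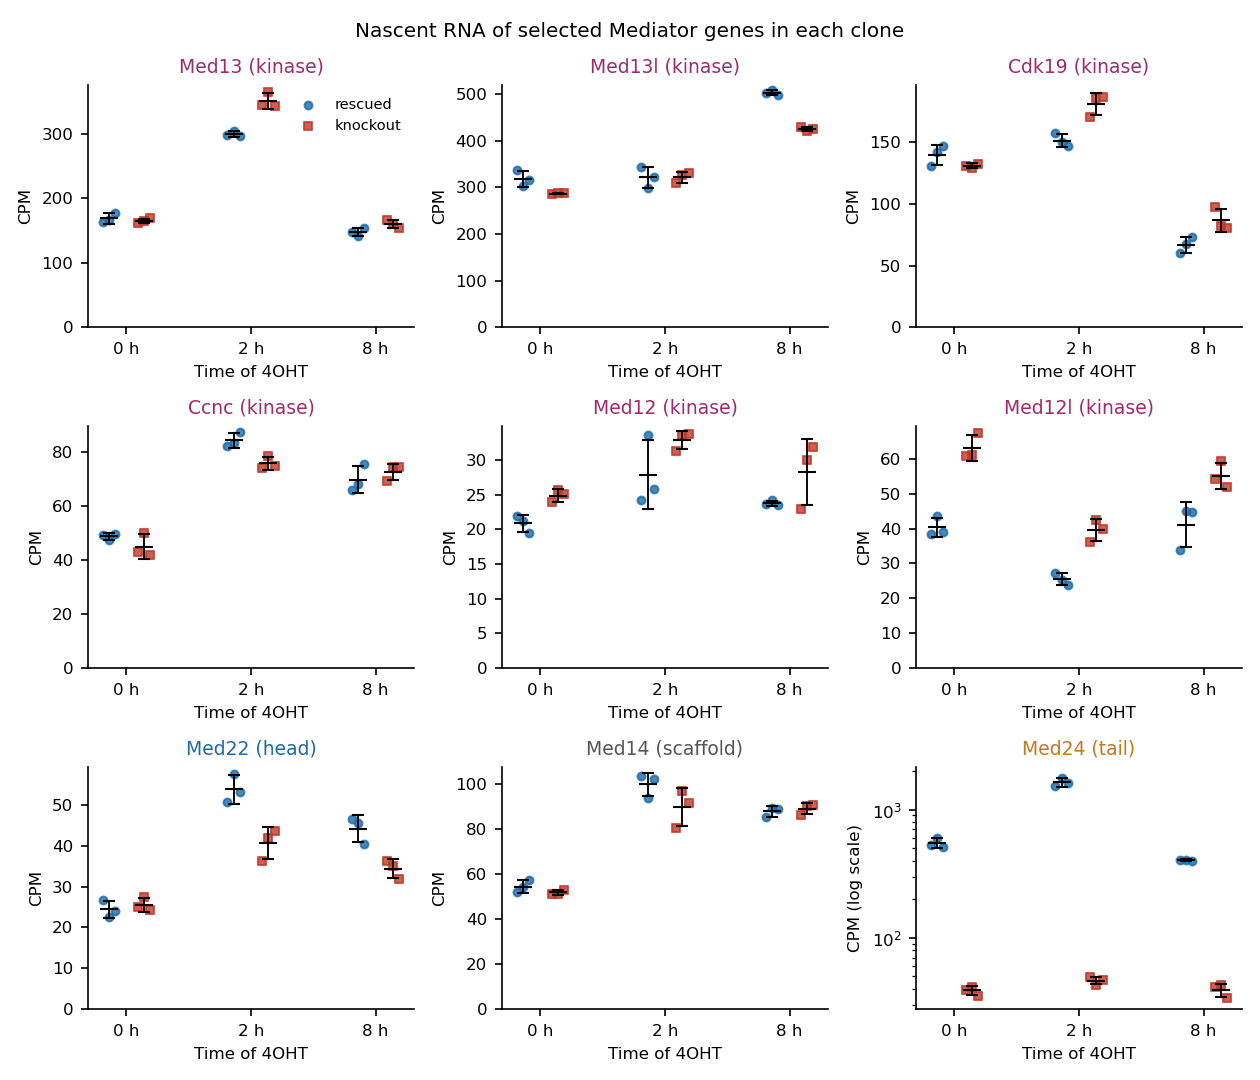
CPM of 9 Mediator genes in each library (circles rescued, squares knockout) by time of 4OHT, with black bars for the mean ± SD of 3 clones. The Med24 axis is logarithmic and the others start at 0. Med13 peaks at 2 h, Med13l is highest at 8 h, Cdk19 is lowest at 8 h, and Med12l is higher in knockout than in rescued cells at each time.

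Most Mediator genes other than Med24 were not called between knockout and rescued cells, which also differ in doxycycline. At 0 h, 2 members were higher in knockout cells (background 6.81%) and 3 lower (9.64%), Med24 among them. At 2 h, 4 were higher (10.8%) and 4 lower (12.9%), and at 8 h 5 were higher (14.5%) and 5 lower (17.1%). The members' shares, from 6.45% to 16.1%, are near the background. The medians over the 30 members other than Med24 were 0.10, 0.03 and 0.06, beside 0.01, 0.00 and -0.00 for all genes. Over all 31 members they were 0.08, 0.02 and 0.06, and turned to -0.07 at 2 h and -0.21 at 8 h with library size alone, which shifted all genes by -0.09 and -0.25. In that scaling 1 member was higher and 1 lower at 0 h, 1 and 3 at 2 h and 0 and 6 at 8 h. The share of all calls that were higher was then 18.4% in place of 45.7% at 2 h and 8.17% in place of 45.8% at 8 h. Of the 31 members, 15 were called neither in these comparisons nor in those of the responses below: Med6, Med8, Med11, Med17, Med1, Med10, Med21, Med31, Med14, Med16, Med23, Med25, Med29, Med12 and Ccnc.

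Med12l was higher in knockout than in rescued cells at all 3 times. The log2 differences, from the library values above, were 0.64 ± 0.09 (adjusted p = 4.68e-06) at 0 h, 0.64 ± 0.10 (adjusted p = 1.01e-05) at 2 h and 0.45 ± 0.09 (adjusted p = 2.64e-04) at 8 h, or 1.56-fold, 1.56-fold and 1.36-fold. At 8 h the call was lost with library size alone (0.17, adjusted p = 0.353). Igsf10 was not called in any of the 3 comparisons, at log2 differences of 0.13, 0.33 and 0.15. Med15 was lower in knockout cells at all 3 times, by -0.20 ± 0.06 (adjusted p = 0.0198), -0.30 ± 0.05 (adjusted p = 6.34e-05) and -0.20 ± 0.06 (adjusted p = 0.00688). Its call at 0 h was lost without any 1 of knockout 0 h clone C or rescued 0 h clone C (-0.19 to -0.15, adjusted p 0.0532 to 0.111). No other member beside Med24 was called at more than 2 of the 3 times.

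At 0 h, Med27 was lower by -0.24 ± 0.07 (adjusted p = 0.0188), a call lost without any 1 of knockout 0 h clone A or B (-0.24 to -0.23, adjusted p 0.0576 to 0.0647), and Med4 was higher by 0.21 ± 0.06 (adjusted p = 0.0213), a call lost with DESeq2 (adjusted p = 0.0590) and without any 1 of knockout 0 h clone A or B or rescued 0 h clone A or B (0.18 to 0.21, adjusted p 0.0629 to 0.104). The count at 0 h was 3 without knockout 0 h clone A or B. At 2 h the calls beside Med24, Med12l and Med15 were Med22 (-0.40 ± 0.08 (adjusted p = 3.22e-04)), Med28 (-0.26 ± 0.06 (adjusted p = 0.00233)), Med13 (0.23 ± 0.05 (adjusted p = 6.56e-04)), Cdk19 (0.26 ± 0.06 (adjusted p = 0.00271)) and Med19 (0.25 ± 0.09 (adjusted p = 0.0386)). The last was lost with DESeq2 (adjusted p = 0.0582), without the 3 high-share libraries (0.19, adjusted p = 0.176) and without any 1 of knockout 2 h clone A or rescued 2 h clone A or C (0.18 to 0.24, adjusted p 0.102 to 0.224). At 8 h they were Med22 (-0.35 ± 0.08 (adjusted p = 0.00154)), Med13l (-0.24 ± 0.05 (adjusted p = 6.99e-04)), Cdk19 (0.40 ± 0.07 (adjusted p = 7.72e-05)), Med9 (0.22 ± 0.07 (adjusted p = 0.0105)), Med7 (0.21 ± 0.07 (adjusted p = 0.0267)), Med26 (-0.15 ± 0.06 (adjusted p = 0.0363)) and Med30 (0.25 ± 0.09 (adjusted p = 0.0322)). With library size alone Med9 and Med7 turned to -0.04, adjusted p = 0.827 and -0.05, adjusted p = 0.808. Calls were lost for Med7 without any 1 of knockout 8 h clone A or rescued 8 h clone A or C (0.16 to 0.20, adjusted p 0.0705 to 0.174), for Med26 without any 1 of knockout 8 h clone B or C or rescued 8 h clone B or C (-0.16 to -0.10, adjusted p 0.0605 to 0.182) and for Med30 without any 1 of knockout 8 h clone A or B or rescued 8 h clone B or C (0.18 to 0.25, adjusted p 0.0621 to 0.155). Without the 3 high-share libraries the calls of Med26 (-0.04, adjusted p = 0.708) and Med30 (0.26, adjusted p = 0.0972) were lost. DESeq2 ended those of Med7, Med26 and Med30 (adjusted p = 0.0544, 0.0673 and 0.0602). Omission of the low-count filter ended those of Med7 and Med30 (adjusted p = 0.0615 and 0.0646). A fit of only the groups compared ended that of Med26 (adjusted p = 0.105).

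**Figure D3:**
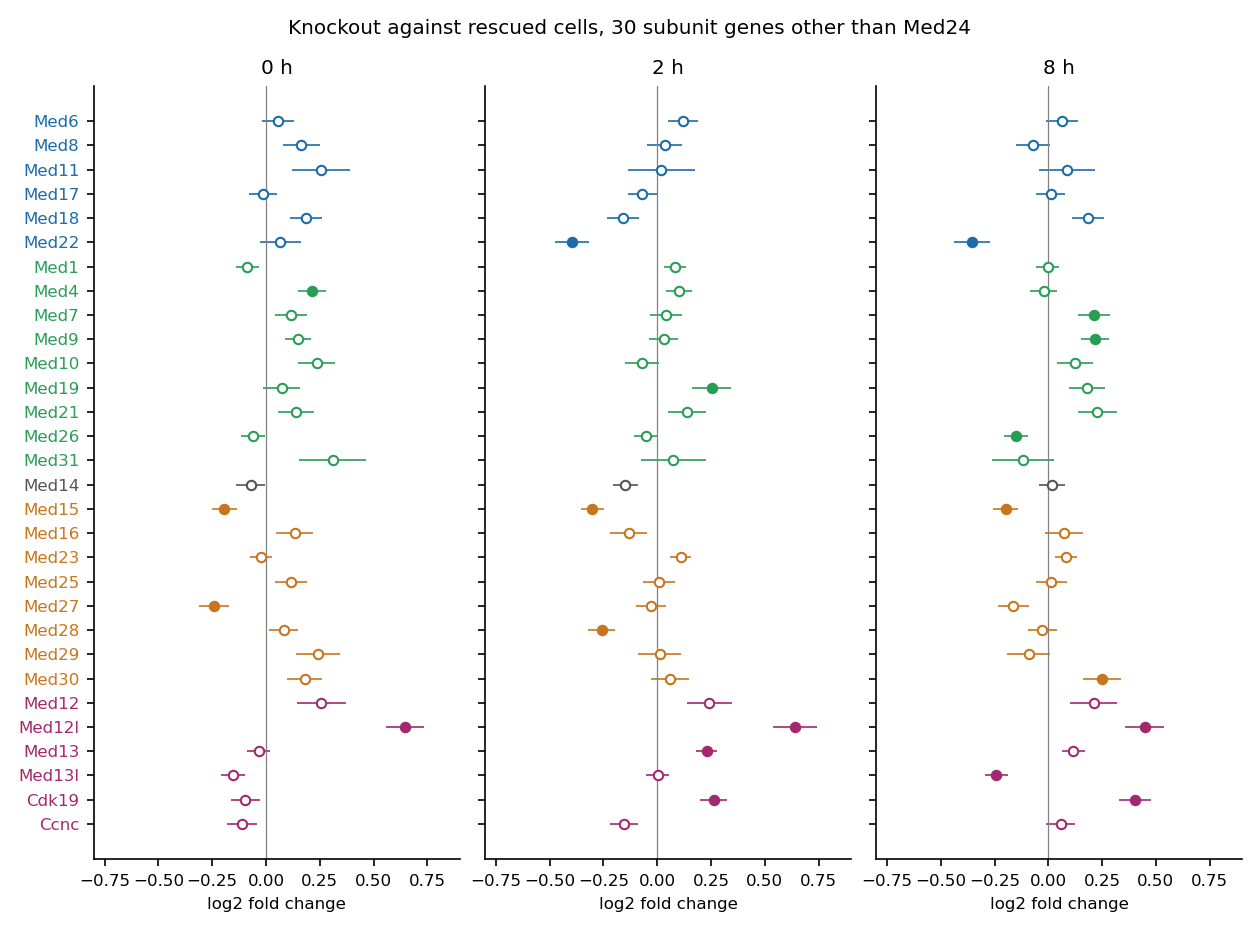
Log2 fold change of knockout against rescued cells (points, with bars of ± SE) at 0, 2 and 8 h for the 30 tested members other than Med24, coloured by module; filled points passed an adjusted p of 0.05. Med12l lies to the right at all 3 times and Med15 to the left.

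For 25 of the 31 members at 2 h and 28 at 8 h, no difference between the responses of knockout and rescued cells to 4OHT was called. Across the 30 members other than Med24, the log2 changes of rescued and knockout cells had a Pearson correlation of 0.89 at 2 h and 0.88 at 8 h, given as a description across genes of the same libraries. Over all 14128 genes it was 0.89 and 0.87. Of the 16 members that rose by 2 h in rescued cells and the 16 that did so in knockout cells, 13 were shared, 81.2% of each list. All 6 that fell in knockout cells were among the 7 that fell in rescued cells (85.7% of these). Over all genes tested the shared rises were 79.4% of the rescued and 81.7% of the knockout list, and the shared falls 83.4% and 80.3%. The difference between the responses was tested as an interaction in the same model. At 2 h 2 members lay above 0 (background 6.6%), which means a more positive change in knockout cells, and 4 below 0 (background 6.6%). At 8 h 2 lay above 0 (7.88%) and 1 below (8.88%). With library size alone 1 member was called at 2 h and 1 at 8 h, both below 0, and the share of all calls above 0 was 9.68% in place of 50.0% and 6.15% in place of 47.0%. The member medians were -0.08 and -0.00, beside -0.01 at both times for all genes.

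The response of Cdk19 differed at both times. Its interaction was 0.36 ± 0.09 (adjusted p = 0.00788) at 2 h, where the knockout rise was larger, and 0.50 ± 0.10 (adjusted p = 6.23e-04) at 8 h, where the knockout fall was smaller. These calls were lost with library size alone (0.23, adjusted p = 0.655, and 0.20, adjusted p = 0.489). Med13 was at 0.27 ± 0.07 (adjusted p = 0.012) at 2 h, its rise being 2.13-fold in knockout against 1.77-fold in rescued cells. That call was also lost with library size alone (0.14, adjusted p = 0.804). Med13 at 8 h was not called, at 0.15 ± 0.07 (adjusted p = 0.174). Both genes belong to the kinase module, and its other members, Med12, Med12l, Med13l and Ccnc, were not called in either interaction.

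Med22 and Med28 rose less at 2 h in knockout cells, and Med18, which rose in rescued cells, was not called in knockout cells. Med22 was at -0.46 ± 0.12 (adjusted p = 0.0112) at 2 h, a call lost without knockout 0 h clone B (-0.40, adjusted p = 0.0532), and at -0.42 ± 0.13 (adjusted p = 0.0218) at 8 h, a call lost without any 1 of knockout 0 h clone B, rescued 0 h clone B or C or rescued 8 h clone A (-0.40 to -0.35, adjusted p 0.0535 to 0.0861) and without the 3 high-share libraries (-0.35, adjusted p = 0.0729). Med28 was at -0.34 ± 0.09 (adjusted p = 0.0112) at 2 h, and its call was lost with library size alone (-0.47, adjusted p = 0.201). That scaling also ended the 2 h calls of Med22 (-0.58, adjusted p = 0.133) and Med18 (-0.47, adjusted p = 0.232). Med18 was at -0.35 ± 0.11 (adjusted p = 0.0281), a call lost with DESeq2 (adjusted p = 0.0795) and without any 1 of knockout 0 h clone C, knockout 2 h clone A or C, rescued 0 h clone C or rescued 2 h clone B or C (-0.34 to -0.31, adjusted p 0.0568 to 0.081). Med24 itself was at -1.33 ± 0.11 (adjusted p = 4.74e-10) at 2 h and 0.47 ± 0.12 (adjusted p = 0.00595) at 8 h, its reads having risen and later fallen in rescued cells as given above.

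**Figure D4:**
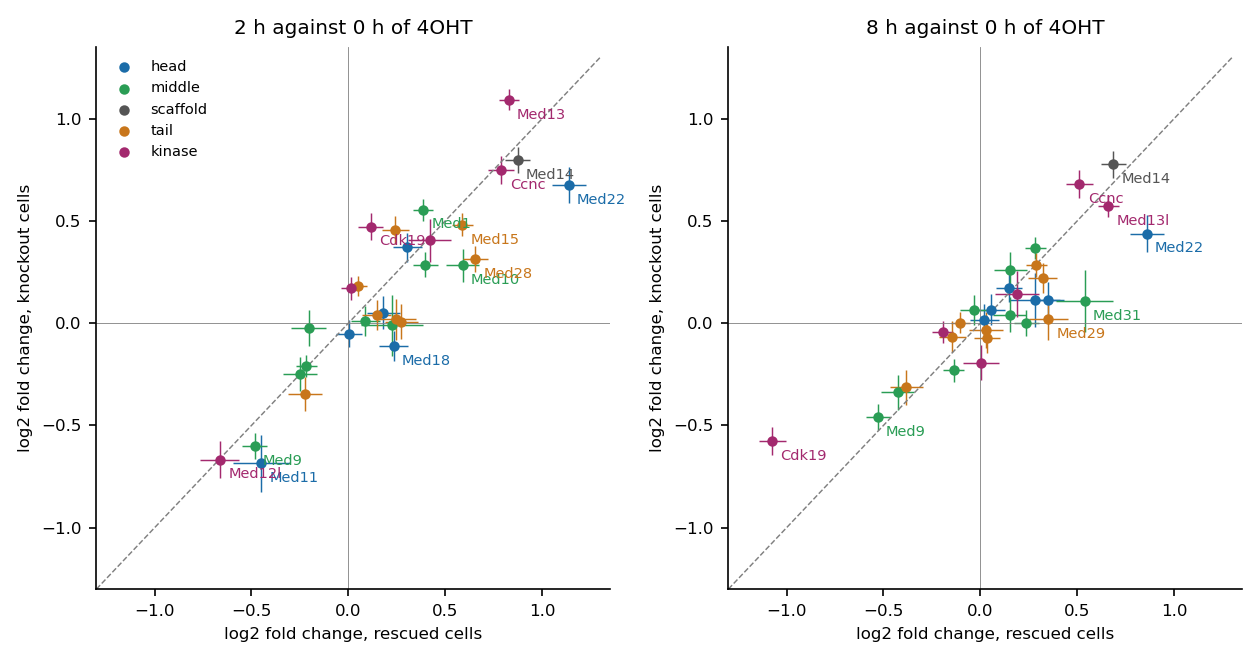
Log2 fold change after 2 h (left) and 8 h (right) of 4OHT in knockout cells (vertical) against rescued cells (horizontal) for the 30 tested members other than Med24, with bars of ± SE and a dashed line of equal change. Med22 lies under the line at both times and Cdk19 above it.

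Levels between genes were compared per kb of merged exons. In rescued cells at 0 h the order was led by Med24 at 84.0 ± 7.2 CPM per kb (SD, n = 3), followed by Med26 at 51.5 ± 2.5, Med6 at 37.9 ± 1.5 and Med9 at 32.8 ± 1.6. It ended with Med12l at 3.16 ± 0.22 and Med12 at 2.71 ± 0.16. Of the 30 pairs of neighbours in the order, 20 overlapped in their ranges over the 3 clones, so the middle of the order is not resolved. Without doxycycline Med24 ranked 27th of 31 at 0 h, at 5.96 ± 0.48 CPM per kb, and Med26 led at 49.4 ± 1.3. Med24 ranked 27th at 2 h and 29th at 8 h in knockout cells. The order depends on the length used: per kb of the whole gene, Med26 was 16th and Med12l last in rescued cells at 0 h. Whether intron reads were counted is not given in the sources used here.

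A list of 18 genes that work with Mediator was followed beside it: cohesin and its loader, coactivators such as Ep300 and Crebbp, the TFIIH kinase, P-TEFb, and Polr2a and Polr2m. Of the 18, 13 rose and 0 fell by 2 h in rescued cells (32.4% and 33.8% of all genes) and 16 rose and 0 fell in knockout cells (31.5% and 35.2%). Scaling by library size alone shifted all genes by -0.16 in rescued and -0.28 in knockout cells at 2 h. Fewer of the 18 were then called in both kinds of cell, as counted in the last section. Cdk9, the kinase of P-TEFb that releases paused polymerase, rose by 0.70 ± 0.05 (adjusted p = 5.33e-13) and 0.63 ± 0.05 (adjusted p = 3.29e-12). Ep300, a histone acetyltransferase, was at 0.49 ± 0.05 (adjusted p = 3.09e-10) in rescued cells, and Nipbl, the cohesin loader, at 0.82 ± 0.05 (adjusted p = 6.14e-15) in knockout cells. At 8 h 6 were higher and 6 lower in rescued cells (30.7% and 31.3% of all genes) and 9 and 5 in knockout cells (28.2% and 29.6%). Cdk9 was at 0.44 ± 0.05 (adjusted p = 1.45e-08) and 0.38 ± 0.05 (adjusted p = 4.80e-07), Ep300 at 0.40 ± 0.05 (adjusted p = 3.01e-08) in rescued cells and Cdk7, the TFIIH kinase, at 0.44 ± 0.06 (adjusted p = 6.27e-08) in knockout cells. From 2 to 8 h 1 rose and 11 fell in rescued cells (30.7% and 30.2%) and 1 rose and 15 fell in knockout cells (29.4% and 27.7%). Nipbl was at -0.56 ± 0.05 (adjusted p = 3.94e-11) and -0.60 ± 0.05 (adjusted p = 1.82e-11), Polr2a, the largest polymerase subunit, at -0.48 ± 0.05 (adjusted p = 1.30e-09) in rescued cells, and the cohesin subunit Stag1 at -0.73 ± 0.06 (adjusted p = 8.98e-12) in knockout cells.

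Between knockout and rescued cells, 0 of the 18 were higher and 1 lower at 0 h (6.81% and 9.64% of all genes), 6 and 0 at 2 h (10.8% and 12.9%) and 6 and 1 at 8 h (14.5% and 17.1%). Nipbl was lower at 0 h (-0.18 ± 0.05 (adjusted p = 0.0158)), where Stag2 was not called (0.17 ± 0.06 (adjusted p = 0.0589)). The cohesin subunits Stag2 and Stag1 were higher at 2 h (0.49 ± 0.06 (adjusted p = 1.86e-07) and 0.34 ± 0.06 (adjusted p = 3.86e-05)), and Rad21, also of cohesin, and Polr2a at 8 h (0.25 ± 0.05 (adjusted p = 3.51e-04) and 0.20 ± 0.05 (adjusted p = 0.00347)). In the interaction 6 lay above 0 and 0 below at 2 h (6.6% and 6.6% of all genes) and 1 and 0 at 8 h (7.88% and 8.88%). Nipbl was at 0.37 ± 0.07 (adjusted p = 4.29e-04) and 0.33 ± 0.07 (adjusted p = 0.00167), Mnat1, a TFIIH kinase subunit, at 0.42 ± 0.11 (adjusted p = 0.00997) at 2 h, and Rad21 was not called at 8 h (0.20 ± 0.07 (adjusted p = 0.0539)). With library size alone 1 of the 18 was called at 2 h and 2 at 8 h between the cells, and 0 in either interaction. The call of Nipbl at 0 h was lost without knockout 0 h clone A or rescued 0 h clone C.

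Neighbouring genes limit what counts can say of some members. Of the 32, 6 (18.8%) have a start within 1000 bases of that of a gene on the opposite strand, beside 17.5% of tested genes. Tm7sf3, 277 bases from Med21, fell by 2 h at a log2 change of -1.28 in both kinds of cell, and its exons cover 5.59% of those of Med21. Exons of Zdhhc5, which rose by 0.42 in rescued cells, cover 11.9% of those of Med19. Paf1, 243 bases from Med29, rose by 0.31 in rescued cells. The part of these genes in the Mediator values was not tested.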

How the data were processed

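Nascent RNA was measured in 18 libraries, 6 groups of 3 (rescued or knockout cells, 0, 2 or 8 h into 4OHT treatment). The authors deposited raw read counts, 1 whole number per gene and library, and these were analysed without change. STAR, featureCounts, DESeq and mm10 are named per the submitters' processing notes. Their versions, the annotation and the treatment of strand and introns in counting: not given in the sources used here. Positions came from GENCODE M21 (GRCm38), which held 98.7% of the symbols, and promoters from RefSeq's table of GRCm38.p6.

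Counts were fitted in edgeR 4.0.16 (R 4.3.3) with filterByExpr, TMM scaling and a quasi-likelihood model of 6 group means over all 18 libraries. A total of 11 contrasts were tested, with Benjamini-Hochberg adjustment over 14128 genes and a threshold of 0.05. The code was tested on simulated data. No spike-in is named, so changes are relative to the other genes. Fewer cells of a type and less RNA per cell cannot be told apart in bulk RNA. Replicate libraries differed by more than sampling noise. Alternatives were DESeq2 1.42.0, library size alone, no low-count filter, a replicate block, single libraries left out, the 3 high-share libraries left out, and only the groups compared.

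The members, lists and modules were chosen with earlier results of these data known. Values of every library are given for Med24, for the 3 largest called changes in each comparison, for members called in an interaction and for both pairs of paralogs. At most 2 partner genes are named per comparison, those with the smallest p, and promoters are printed for the 4 largest changes at 2 h in rescued cells other than Med24. Not every gene of these lists and their neighbours is reported here by name.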

Additional observations from a re-analysis of the deposited data

Results flagged for a closer look

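The change from 0 h differed between knockout and rescued cells, by the interaction test, for 6 members at 2 h and 3 at 8 h. At 2 h the difference in log2 change, knockout minus rescued, was 0.36 for Cdk19, 0.27 for Med13, -0.35 for Med18, -0.46 for Med22, -0.34 for Med28 and -1.33 for Med24. At 8 h it was 0.50 for Cdk19, -0.42 for Med22 and 0.47 for Med24. The call of Med18 was lost with DESeq2 (adjusted p = 0.080) and without any 1 of knockout 0 h clone C, knockout 2 h clone A or C, rescued 0 h clone C, or rescued 2 h clone B or C. That of Med22 at 2 h was lost without knockout 0 h clone B. At 8 h it was lost without any 1 of knockout 0 h clone B, rescued 0 h clone B or C, or rescued 8 h clone A, and without the 3 high-share libraries. With library size alone, those of Cdk19 at both times, of Med13, Med18, Med22 and Med28 at 2 h and of Med24 at 8 h were lost, with the sign unchanged. Groups of 3 libraries were not searched for outlying libraries.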

How the results depend on the processing

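Of 341 member results over the 11 comparisons, 148 were called. The shares of all genes called in each comparison are given above. DESeq2 ended 12 of these calls and added 1, omission of the low-count filter ended 6 and added 5, a fit of only the groups compared ended 4 and added 10, and none of these 3 turned a sign. Leaving out single libraries ended 88 calls and added 30 over all such fits, with no sign turned. The counts of members called ranged then from 19 to 22 at 2 h, 17 to 19 at 8 h and 18 to 22 from 2 to 8 h in rescued cells, 20 to 22, 12 to 15 and 15 to 18 in knockout cells, 3 to 6, 7 to 10 and 7 to 11 between the cells at 0, 2 and 8 h, and 5 to 7 and 2 to 3 in the interactions.

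Scaling by library size alone ended 64 calls with the sign kept and 10 with it turned, and added 12. The counts of members called fell to 15, 10 and 9 in rescued cells at 2 h, 8 h and 8 h against 2 h, to 12 and 10 in knockout cells at 2 h and 8 h against 2 h, to 2, 4 and 6 between the cells at 0, 2 and 8 h, and to 1 in each interaction. Its 10 reversed values were, at 2 h in knockout cells, -0.0022 for Med10, -0.10 for Med23, -0.035 for Med24 and -0.11 for Med13l. At 8 h in knockout cells they were -0.19 for Med17, -0.10 for Med19, -0.080 for Med15 and -0.15 for Med25, and between the cells at 8 h -0.048 for Med7 and -0.041 for Med9. All genes shifted with the scaling, as given above. Leaving out the 3 high-share libraries, which leaves 1 library in knockout cells at 8 h that is taken to vary like the other groups, ended 14 calls, added 12 and turned Med25 from 2 to 8 h in knockout cells to -0.021. The cause was not tested.

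Of the 18 partner genes, library size alone called 7, 6, 5 and 8 at 2 h and 8 h against 2 h in rescued cells and at 2 h and 8 h in knockout cells, 0, 1 and 2 between the cells and 0 in each interaction. At 8 h in knockout cells 9 were called with only the groups compared and 9 without the high-share libraries. Between the cells at 0 h it was 2 with DESeq2, 2 without a filter, 2 with only the groups compared and 3 without the high-share libraries, and at 8 h it was 4 without a filter and 2 without the high-share libraries. In the interaction at 8 h DESeq2 gave 2 and no filter gave 2. Single libraries left out gave 9 to 12 at 8 h in knockout cells, 0 to 1 and 2 to 6 between the cells at 0 and 8 h, and 1 to 3 in the interaction at 8 h.

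Libraries of 1 letter did not deviate together (mean correlation 0.02 over 45 pairs, from -0.10 to 0.08, 0 pairs over 0.1). With the letter as a replicate block, 22 in place of 23 members were called at 2 h in rescued cells, since Med19 was lost (adjusted p = 0.054). Calls were added for Med17 at 8 h and from 2 to 8 h and for Med31 from 2 to 8 h in rescued cells.

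Module medians moved by more than the spread between replicates mostly under library size alone (64 of 77 values). Depth limits Med11 and Med31, with 1357 and 1747 counts over all libraries.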
